A study of Mus musculus with 4 samples.

Results

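The genes of the pancreatic trypsinogens, the trypsin inhibitor SPINK1, the regenerating (REG) proteins and the proteins of the zymogen granule were looked up in a map of NFIC binding sites in mouse pancreas. The set had 10 genes: *Prss1*, *Prss2*, *Prss3*, *Spink1* (also written *Spink3*), *Gp2*, *Zg16*, *Sycn*, *Rnase1*, *Reg1* and *Reg3b*. They were chosen by name, and every row of the annotated peak list that carried such a name or alias was taken. This gave 10 rows of 15824, of which 7 belonged to the set, with 5 of its 10 genes among the 9086 genes that have a peak. The other 3 rows belonged to *Zc3h12a*, the gene of the RNA-degrading enzyme Regnase-1. It carries the alias *Reg1* but is a different gene, and its rows were left out.

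NFIC chromatin immunoprecipitation sequencing (ChIP-Seq) was done on whole pancreas of wild-type mice (genotype from the study's text) in 3 libraries with a Bethyl antibody, beside 1 library of input DNA with no antibody. All 4 samples carry the strain label Mixed, and the deposited description gives an age of 8 to 12 weeks. The deposited result is a merged list in mm10 coordinates, in which each peak has a fixed width of 173 bp, a score, a focus ratio (the fraction of its tags that lie as a centred binding event would place them), a class and the gene with the nearest transcription start site (TSS). The list has 0 columns for single libraries, so the depth is unknown and no value below has a replicate error or a test between samples. Whole pancreas holds several cell types, and binding in fewer cells cannot be told apart from weaker binding in each cell.

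NFIC belongs to the nuclear factor I transcription factors, which bind as dimers to a palindrome of the arms TGGC and GCCA, and more weakly to a single arm. Acinar cells of the pancreas make digestive enzymes as inactive precursors and store them in zymogen granules. Trypsin activates the other precursors, and SPINK1 blocks trypsin that has become active too early. REG proteins are secreted lectin-like proteins whose genes are known to rise in pancreatitis.

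The 6 printed peak sequences below are those of 4 genes of the set, shown because they carry the NFIC signal assigned to these genes. They are from GRCm38, the assembly of mm10, and run 5′ to 3′ on the strand of the gene. Capitals mark the NFI full site, which is TGGC, 5 free bases and GCCA with at most 1 mismatch over the 8 fixed bases, or the NFI arm TTGGCA, which reads TGCCAA on the other strand. The promoter peak of *Sycn* is at chr7:28540628-28540800 (+ strand), the upstream peak of *Sycn* at chr7:28537077-28537249 (+), the downstream peak of *Rnase1* at chr14:51143491-51143663 (−), its upstream peak at chr14:51152378-51152550 (−), the *Gp2* peak at chr7:119456400-119456572 (−) and the *Reg3b* peak at chr6:78362017-78362189 (+).
Sycn promoter: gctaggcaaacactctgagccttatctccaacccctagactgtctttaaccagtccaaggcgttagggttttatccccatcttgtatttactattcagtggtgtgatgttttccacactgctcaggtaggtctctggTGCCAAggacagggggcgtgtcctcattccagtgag
Sycn upstream: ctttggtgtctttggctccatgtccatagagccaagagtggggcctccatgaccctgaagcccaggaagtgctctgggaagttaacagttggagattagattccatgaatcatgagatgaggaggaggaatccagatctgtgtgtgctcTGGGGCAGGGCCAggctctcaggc
Rnase1 downstream: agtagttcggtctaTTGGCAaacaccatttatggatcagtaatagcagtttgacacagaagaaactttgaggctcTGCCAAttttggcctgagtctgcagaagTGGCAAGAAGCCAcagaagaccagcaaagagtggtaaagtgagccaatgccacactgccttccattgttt
Rnase1 upstream: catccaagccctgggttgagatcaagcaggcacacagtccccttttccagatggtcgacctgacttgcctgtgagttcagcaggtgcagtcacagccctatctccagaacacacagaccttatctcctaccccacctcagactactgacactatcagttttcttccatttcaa
Gp2 intron: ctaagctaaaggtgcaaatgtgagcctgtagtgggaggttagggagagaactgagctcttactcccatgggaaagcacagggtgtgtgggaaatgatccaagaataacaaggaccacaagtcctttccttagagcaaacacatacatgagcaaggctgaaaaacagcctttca
Reg3b upstream: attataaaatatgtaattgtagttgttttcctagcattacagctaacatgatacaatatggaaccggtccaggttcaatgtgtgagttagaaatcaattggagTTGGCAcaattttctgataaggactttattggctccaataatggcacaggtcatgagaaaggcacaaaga

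The data placed NFIC near the granule genes *Sycn* and *Gp2*, near *Rnase1*, near *Spink1* and near *Reg3b*, and assigned no peak to *Prss1*, *Prss2*, *Prss3*, *Zg16* or *Reg1*. The 5 of 10 genes with an assigned peak compare with 35.9% of the 21774 protein-coding genes of the annotation. A peak from 1000 bp upstream to the TSS was found at 1 of the 10 genes, *Sycn*, against 10.3% of all protein-coding genes, a share near the background. Within 50 kb of the TSS, whichever gene the peak was assigned to, 9 of the 10 genes had a peak, against 58.4%. The exception was *Prss2*.

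Scores of the 7 peaks ran from 4.78 to 17.5, with a median of 8.76 beside 6.57 for all peaks, and 6 of the 7 were at or above the median of the list. The score scale is the caller's own and was used for rank within the list. The plot of scores shows the strong *Rnase1* peak apart from the other 6, which lie in the body of the distribution. Focus ratios were between 0.553 and 0.78, with a median of 0.722 beside 0.684 for all peaks. By class, 4 of the 7 peaks were intergenic, 2 were intronic and 1 was in a promoter.

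**Figure D1:**
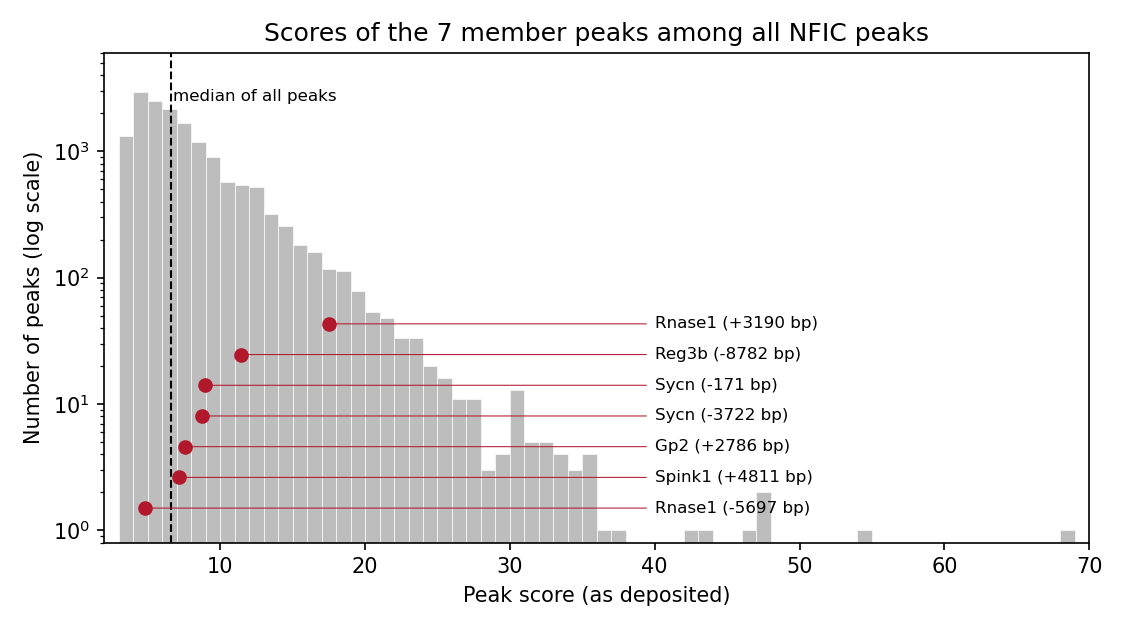
The histogram gives the number of peaks (log axis) by deposited peak score for all 15824 peaks, and red points place the 7 peaks assigned to the 10 genes at their scores, with the distance to the TSS in bp; the height of the points has no meaning. The *Rnase1* peak at 17.5 is the highest of them, and the other *Rnase1* peak, at 4.78, is the only one of the 7 below the median.

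*Sycn* encodes syncollin, a protein of the inner face of the granule membrane. It had the promoter peak of the set, centred 171 bp upstream of the TSS, with a score of 8.96, at percentile 73.8 of the list. Its focus ratio of 0.78 was the highest of the 7 and stood at percentile 93.3. The sequence held the NFI arm once, centred 54 bp from the peak centre, and a GATA motif 63 bp from the centre on the other side, but no full site. A further *Sycn* peak lay 3722 bp upstream, with a score of 8.76 (percentile 72.4) and a focus ratio of 0.699. There the full site TGGGGCAGGGCCA matched with 1 mismatch, near the edge of the interval, 69 bp from the centre. The surroundings of *Sycn* held 8 peaks within 50 kb, the most of any of the 10 genes. The strongest of these, with a score of 20.5 (percentile 98.4), lay 29514 bp downstream in intron 1 of *Pak4*, the gene of a protein kinase, and was assigned to the microRNA gene *Mir7049*.

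*Gp2* encodes the major glycoprotein of the zymogen granule membrane. Its peak lay 2786 bp downstream of the TSS in intron 2 of 10, with a score of 7.57 (percentile 61.9) and a focus ratio of 0.727. The interval held neither the full site nor an arm. It held the motif TTTCCC 2 times, 3 bp and 16 bp from the centre, written here as the TC box of acinar enzyme promoters. A stronger peak of score 13.3 lay 20209 bp upstream of *Gp2*, 219 bp before the TSS of *Umod*, which encodes uromodulin, a relative of GP2 with a zona pellucida domain. That peak held a full site with 1 mismatch.

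*Zg16* encodes a lectin that binds to the granule membrane. It had no assigned peak, and the nearest lay 35.1 kb away at the promoter of *Pagr1a*, with a score of 4.98. Of the 4 peaks within 50 kb of *Zg16*, the other 3 were assigned to *AI467606* and lay 36210, 44994 and 48952 bp upstream, with scores of 4.78, 6.17 and 9.36. All 3 were annotated inside repeats. The closest, at 36210 bp, was in an ERV1 element.

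*Rnase1* encodes the secreted ribonuclease of the pancreas. It had peaks on either side of the gene that differed in strength. The downstream peak had the highest score of the set, 17.5 (percentile 96.7), with a focus ratio of 0.722. It lay 3190 bp after the TSS and 1425 bp past the end of the gene. The upstream peak, 5697 bp before the TSS, had a score of 4.78 (percentile 21.9), the lowest of the set. The downstream sequence held an exact full site, TGGCTTCTTGCCA on the + strand, 23 bp from the centre, and the arm 2 times, whereas the upstream one held none of these and had the E-box CAGATG and the GATA motif.

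The downstream *Rnase1* peak lay in an RMER19B2 element, a long terminal repeat of the ERVK class of endogenous retroviruses. The list held 4 peaks annotated to RMER19B2, near *Rnase1*, *Edem1*, *Fndc3a* and *Rragc*, and all 4 held a full site. The scores were 17.5, 14.7, 11.2 and 3.39. The sites are shown because 3 of the 4 were the same 13 letters with similar flanks, and they are printed with up to 10 bases on each side and the site in capitals, on the strand that aligns with the printed *Rnase1* peak. The intervals are chr14:51143538-51143570 (−), chr6:108871491-108871523 (+), chr4:124016564-124016596 (+) and, for *Fndc3a*, chr14:72748513-72748545 (−).
Rnase1 site: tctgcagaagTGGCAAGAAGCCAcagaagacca
Edem1 site: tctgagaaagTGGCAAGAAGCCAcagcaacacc
Rragc site: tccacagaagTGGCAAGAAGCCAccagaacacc
Fndc3a site: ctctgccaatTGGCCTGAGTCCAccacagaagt
The *Rnase1*, *Edem1* and *Rragc* sites were exact, and the *Fndc3a* site had 1 mismatch and other letters. Its first 10 printed bases also occur before the full site in the printed *Rnase1* peak, so it is not the same site. The windows of *Fndc3a* and *Rragc* held 2 full sites each, of which 1 is printed. The sites left out were not compared with the 3 that share their letters. Peaks in all ERVK elements numbered 214, or 1.35% of the list, with a median score of 6.17, and 52.8% of them held a full site, close to the 51.8% of all peaks. Of these 214 peaks, 3 had a score above that of *Rnase1*.

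*Spink1* encodes the trypsin inhibitor of the granule. Its peak at chr18:43732340-43732512, in intron 3 of 3, was centred 4811 bp after the TSS, with a score of 7.17 (percentile 57.6). Its focus ratio of 0.553 was the lowest of the 7 and stood at percentile 2.32 of the list. Neither the full site nor an arm was found, and of the other motifs only the HNF1 arm GTTAAT matched. The next peaks were at *Jakmip2*, 75597 bp downstream, and *Gm94*, 89317 bp upstream. The peaks on either side of the *Spink1* TSS were 94.1 kb apart, at percentile 32.5 of the protein-coding genes. Of 11 other SPINK genes, 1 had a peak, beside 35.9% of all protein-coding genes. That gene, *Spink4*, had peaks of score 12.5 at 180 bp and 13.7 at 11571 bp upstream of its TSS.

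*Reg3b*, which encodes a secreted antimicrobial lectin also known as pancreatitis-associated protein, had the highest score of the set after the downstream *Rnase1* peak. The peak lay 8782 bp upstream, with a score of 11.4 (percentile 85.5) and a focus ratio of 0.618, at percentile 15.9. It held the arm TTGGCA 20 bp from the centre and the GATA motif 35 bp from it. *Reg1*, which encodes the first-described regenerating protein, had no assigned peak, and the nearest lay 35.3 kb upstream, with a score of 5.58, beyond the end of *Reg3a*. The 6 REG genes of this cluster on chromosome 6 spread over 98.0 kb, and 2 peaks were assigned to them, 1 to *Reg3b* and 1 to *Reg3a*. The next peak before the *Reg3b* peak was 887 kb away, near *6330415B21Rik*, and the next after *Reg1* was 4230 kb away, near *Pole4*. The distance between the peaks on either side of the *Reg1* TSS, 4260 kb, stood at percentile 96.1 of the protein-coding genes, whose median was 187 kb. *Reg2* and *Reg3g* lay between the same flanking peaks, so this distance is not particular to *Reg1*.

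The neighbourhood plot shows the 10 genes with the peaks around them. *Sycn* and *Rnase1* had assigned peaks close by and peaks of other genes farther out. *Prss1* and *Prss2* lay between the same flanking peaks, 181 kb apart, which is near the median for protein-coding genes (percentile 49.3).

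**Figure D2:**
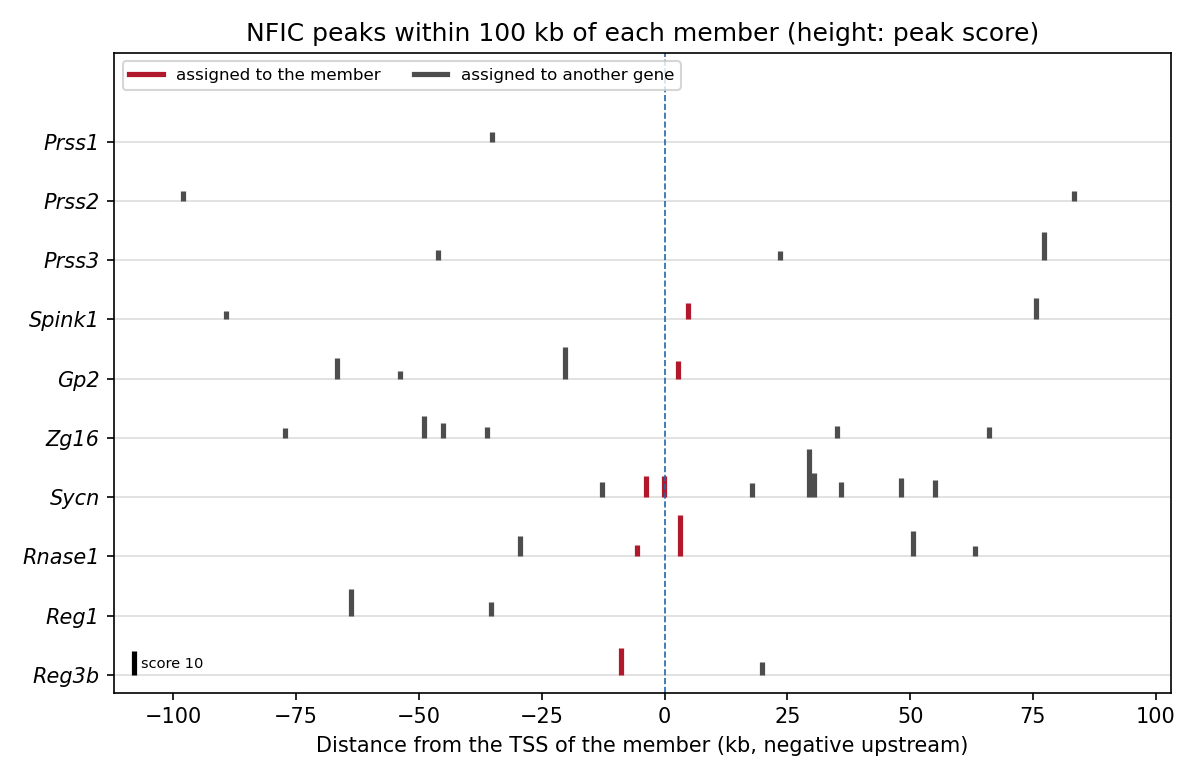
Each line is 1 of the 10 genes with its TSS at 0 kb, and each bar is a peak within 100 kb whose height is the peak score; red bars were assigned to the gene and grey bars to another gene. The red bars are at *Spink1*, *Gp2*, *Sycn*, *Rnase1* and *Reg3b*, and the tallest bar is the peak of score 20.5 downstream of *Sycn*.

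*Prss1*, *Prss2* and *Prss3* encode trypsinogens, the precursors of trypsin, and none of the 3 had an assigned peak. The nearest peak to *Prss3* lay 23.6 kb away at the promoter of *Try10*, another trypsinogen gene, with a score of 3.98. That of *Prss1* lay 35.2 kb upstream in an L1 repeat, assigned to the pseudogene *Gm5409*, with a score of 4.18. For *Prss2* it lay 83.4 kb downstream at the promoter of *Ephb6*, a receptor gene outside the cluster, again with a score of 4.18. These 3 scores were low in the list, at percentiles 6.3, 10.4 and 10.4.

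The other trypsinogen genes of the cluster were mixed. Of 11 names listed, 8 were in the annotation. Of these 8, 5 had a peak, beside 35.9% of all protein-coding genes, with 7 peaks in all. The other 3 had none, like the 3 named genes. *2210010C04Rik*, a trypsinogen-like gene, had a promoter peak 38 bp upstream of the TSS with a score of 12.7 (percentile 89.8), and further peaks at 9511 and 77576 bp. *Try4* had a peak of 11.8 at 1871 bp upstream, and *Try10* the promoter peak named above, 64 bp from its TSS. *1810009J06Rik* had a peak of 3.59, and the 3 without a peak were *Try5*, *Gm5771* and *Gm10334*. Of the 7 peaks, 1 held a full site, beside 51.8% of all peaks, and it was that of *Gm5409*. The cluster map shows these 8 and the 3 named genes over 560.3 kb, with the peaks of score 12.7 and 11.8 at -423.4 and -158.5 kb from the *Prss1* TSS.

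**Figure D3:**
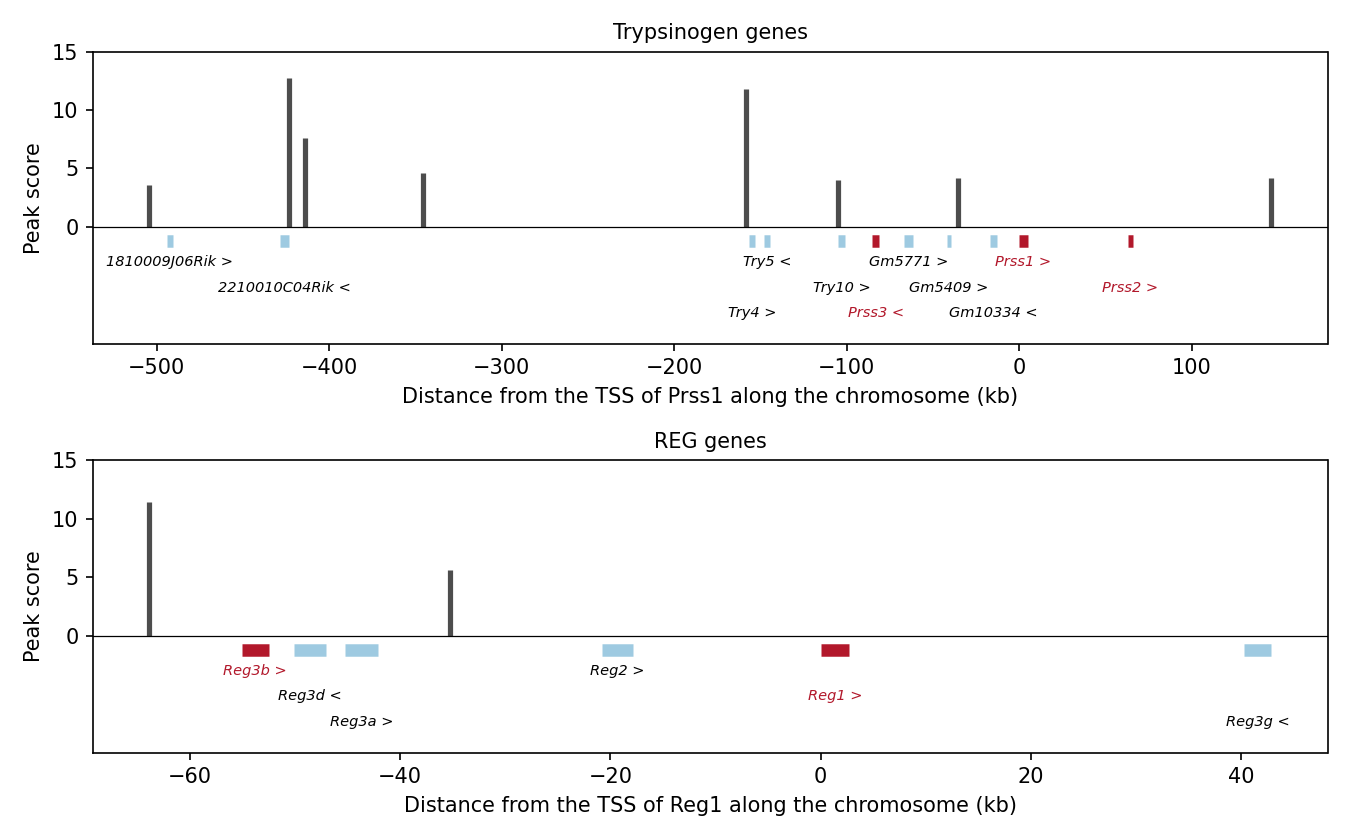
Grey bars give the peak score at the position of each peak, in kb from the TSS of *Prss1* (upper panel) or *Reg1* (lower panel) along chromosome 6, and blocks are genes, red for the named 10, with > and < for the direction of transcription. No bar stands at *Prss1*, *Prss2*, *Prss3* or *Reg1*, and the bars of score 12.7 and 11.8 stand at *2210010C04Rik* and *Try4*.

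The sequences before the TSS of the 3 trypsinogen genes are printed beside that of *2210010C04Rik*, whose promoter peak overlaps it, to show that the absence of a full site was shared by promoters with and without a peak. They are the 250 bases upstream of the TSS from RefSeq (GRCm38), at chr6:41458680-41458929 (+) for *Prss1*, chr6:41521526-41521775 (+) for *Prss2*, chr6:41377614-41377863 (−) for *Prss3* and chr6:41035510-41035759 (−) for *2210010C04Rik*. Capitals mark the letters TATAAA.
Prss1 upstream: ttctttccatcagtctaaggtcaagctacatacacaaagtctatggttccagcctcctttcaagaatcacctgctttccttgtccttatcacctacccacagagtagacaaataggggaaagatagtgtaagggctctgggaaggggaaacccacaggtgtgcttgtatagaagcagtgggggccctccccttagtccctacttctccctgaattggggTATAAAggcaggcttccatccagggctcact
Prss2 upstream: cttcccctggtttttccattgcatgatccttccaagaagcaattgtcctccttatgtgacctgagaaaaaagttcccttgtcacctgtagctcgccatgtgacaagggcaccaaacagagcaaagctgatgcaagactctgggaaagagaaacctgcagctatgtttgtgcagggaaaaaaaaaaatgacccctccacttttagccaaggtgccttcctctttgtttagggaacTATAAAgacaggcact
Prss3 upstream: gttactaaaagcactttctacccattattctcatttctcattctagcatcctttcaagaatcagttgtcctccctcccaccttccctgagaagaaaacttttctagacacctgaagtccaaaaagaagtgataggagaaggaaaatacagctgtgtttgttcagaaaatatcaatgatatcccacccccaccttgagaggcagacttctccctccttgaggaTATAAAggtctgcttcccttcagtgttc
2210010C04Rik upstream: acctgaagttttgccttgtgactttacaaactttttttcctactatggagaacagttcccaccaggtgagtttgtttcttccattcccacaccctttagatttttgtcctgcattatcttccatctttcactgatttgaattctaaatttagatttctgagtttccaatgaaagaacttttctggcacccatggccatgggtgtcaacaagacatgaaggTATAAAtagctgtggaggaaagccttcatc
None of the 4 held an NFI full site or an arm. Over the 32851 promoters of the RefSeq table, each of 300 bases, 15.3% held the full site and 14.1% the arm. Most promoters thus lack each of them, and nothing is read from their absence in these 4. TATAAA, which was added to the motifs after the other results, was in all 4 and in 13.6% of the table. It began 31 bases before the TSS in *Prss1*, 16 in *Prss2*, 28 in *Prss3* and 30 in *2210010C04Rik*. In alignments of the 300 bases, *Prss1* was 55.8% identical to *Prss2* and 59.8% to *Prss3*, but 85.3% identical to *Gm5771*. *Prss3* was 86.4% identical to *Gm10334*, while *2210010C04Rik* was 45.0% to 48.8% identical to the 3 named genes.

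Near-identical copies were visible in the longer upstream stretch. Of the 951 stretches of 50 bases in the 1000 bp before the *Prss1* TSS, 46.3% occurred at 1 place in the assembly, at percentile 8.85 of the protein-coding genes, and the others at 2 places. The share was 81.1% for *Prss3* and 100% for *Prss2*, the median of all genes. Among the relatives without a peak it was 44.1% for *Gm5771*, 87.1% for *Gm10334* and 100% for *Try5*. Among those with peaks it was 100% for *Try10* and *Try4*, 98.3% for *2210010C04Rik* and 47.9% for *1810009J06Rik*. Of these, only *Try10* and *2210010C04Rik* had a peak inside the stretch of 1000 bp. The nearest assigned peaks of *Try4* and *1810009J06Rik* lay outside it, 1871 and 10250 bp upstream. *Reg3b*, whose peak lay 8782 bp upstream and so also outside the stretch, was at 78.9%. Without a peak, *Reg1* was at 97.6% and *Zg16* at 100%. All 7 peaks of the set were at 100%, as were 95.5% of the peaks of the list. The length of the reads and the treatment of reads with several positions are not given in the sources used here, and the part of repeated sequence in the missing *Prss1* and *Prss3* peaks was not tested.

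*Reg1* and *Sycn* had a match of the same arm before the TSS, with a peak at *Sycn* and none at *Reg1*. The *Reg1* stretch, chr6:78425733-78425982 (+), is printed with the arm in capitals for comparison with the *Sycn* promoter peak.
Reg1 upstream: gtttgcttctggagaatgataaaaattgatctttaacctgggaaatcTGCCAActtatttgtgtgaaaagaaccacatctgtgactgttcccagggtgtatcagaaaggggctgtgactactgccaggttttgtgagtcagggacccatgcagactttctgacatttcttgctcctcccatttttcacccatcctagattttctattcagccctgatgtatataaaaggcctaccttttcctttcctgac
Of the members in the promoter table, *Reg3b* also held the arm, and *Gp2*, *Rnase1*, *Prss1*, *Prss2* and *Prss3* did not.

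Motifs were then counted over the 7 peaks, in windows of 200 bp. The full site was in 2 of 7, against 51.8% of all peaks, and it matched exactly in 1, against 13.4%. The arm was in 3 of 7, those of *Sycn*, *Rnase1* and *Reg3b*, against 33.7%. GATAAG, the letters bound by GATA factors, was in 3 of 7 against 7.74%, at *Sycn*, *Rnase1* and *Reg3b*, where the *Rnase1* match was in the upstream peak. TTTCCC was in 1 against 17.7%, CAGATG in 1 against 14.3% and GTTAAT in 1 against 4.34%. No window held the E-box CAGCTG, the SP letters GGGCGG, the FOX letters TGTTTAC or the NR5A2 letters CAAGGTCA, which were in 21.4%, 21.1%, 3.99% and 2.04% of all peaks. A match gives letters and not a bound factor, and with 7 peaks these shares are a description. The GC content of the windows ran from 38.5% at *Reg3b* to 53.0% at the upstream *Sycn* peak.

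Other secreted acinar proteins were counted in the same way. Of the elastases, chymotrypsins and carboxypeptidases, 9 of 10 genes had a peak and 4 had one in the promoter window, with a median score of 8.56 over 13 peaks. The 9 include *Ctrc*, a transcribed pseudogene in this assembly, whose peak scored 3.98 (percentile 6.3). *Ctrc* is also counted below among the genes of trypsin activation and clearance. Of the amylases and lipases, 7 of 13 genes had a peak and 1 had one in that window, with a median of 7.57. Among all protein-coding genes, 35.9% had a peak and 10.3% had one in the window. A further peak of the amylase and lipase list, 89 bp after its TSS, was in the promoter class but outside the window. The 10 genes, with 5 and 1, stood lower in counts than the first list, and no test of the difference was made. Their median score of 8.76 was close to both. Full sites were in 7 of 13 and 4 of 13 peaks of these lists, beside 51.8% of all peaks.

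**Figure D4:**
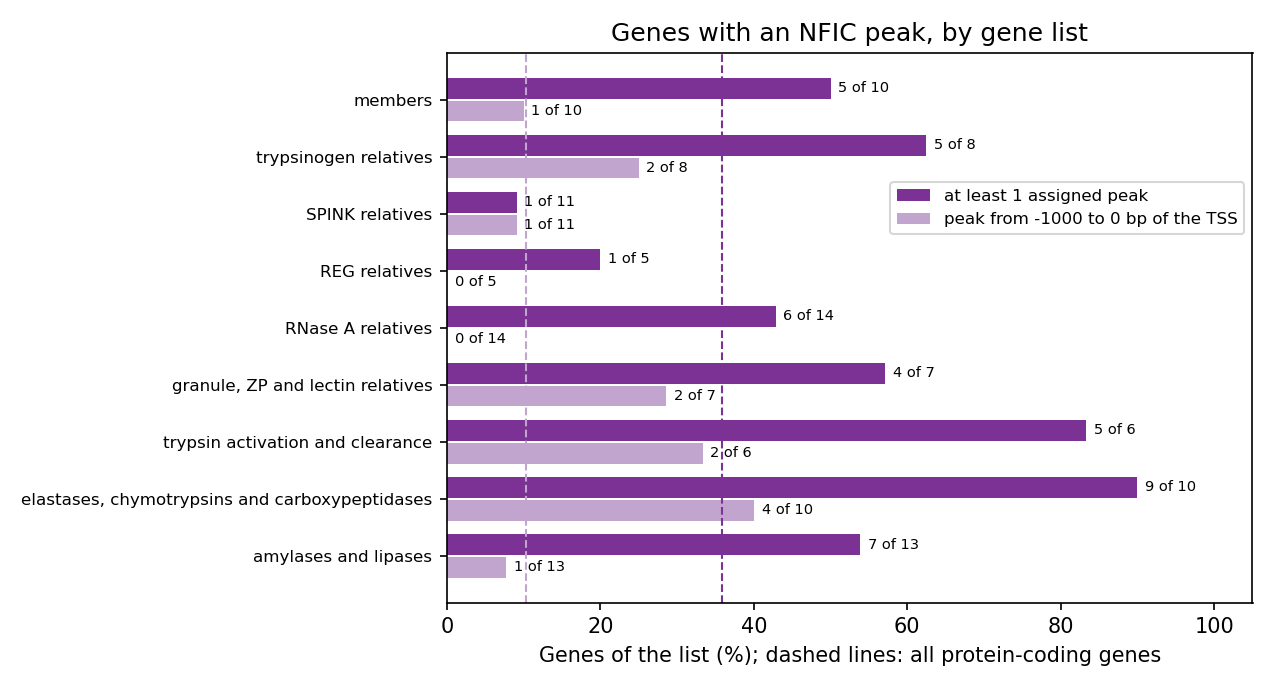
Bars give the percentage of genes in each list with at least 1 assigned peak (dark) or with a peak from 1000 bp upstream to the TSS (light), with the counts beside them; dashed lines mark 35.9% and 10.3% of all protein-coding genes. The 10 genes are labelled members and have 5 of 10 and 1 of 10.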

How the data were processed

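NFIC ChIP-Seq (3 libraries) and input DNA (1 library) from mouse pancreas were described from a merged peak list. The submitters' processing notes name BWA, Picard, MACS2 and mm10, the paper names RUbioSeq+ and HOMER, and the header of the list names HOMER's annotatePeaks. Versions and thresholds are not given in the sources used here. The authors deposited a peak score whose scale is not stated and a focus ratio, which is a fraction between 0 and 1. The list has 0 columns per sample, so no test between samples was made.

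The 10 genes were looked up by symbol or alias and checked by Entrez ID. Sequences, gene positions and the 21774 protein-coding genes came from RefSeq GRCm38.p6, and 7 of 7 peaks had the same nearest gene and distance there. Motifs were searched on both strands in 200 bp windows centred on the peaks. TTGGCA and the full site overlap in letters. The promoter table had the 250 bases before and 50 after a start for all genes of the set other than *Zg16* and *Spink1*. Stretches of 50 bases were counted on both strands over the assembly, and promoters were aligned globally.

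The genes named are the 10, the gene of the peak nearest to each and those with a peak in lists of relatives; *Mir7049*, *Pak4*, *AI467606*, *Gm94*, *Jakmip2*, *6330415B21Rik*, *Pole4*, *Edem1*, *Fndc3a* and *Rragc*, and relatives without a peak, were named after their values were seen. The genes and lists were chosen with earlier results of these data known. Scripts were tested on simulated data. Python 3.11.15, numpy 2.4.6, pandas 2.3.3, pysam 0.24.0, biopython 1.88, numba 0.67.0 and matplotlib 3.10.9 were used. Tables of expression were not used here.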

Additional observations from a re-analysis of the deposited data

How the results depend on the processing

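Of 25 values recomputed under alternatives, 20 were a count within 1.5 times the reported one or an equal median. With peaks at or above the median score of the list, the median of the assigned peaks was 8.86, as 1 *Rnase1* peak was lost. With 0 mismatches, 1 peak held the full site. With a distance of 10 kb, 5 of the 10 genes had a peak in reach. When the rows of *Zc3h12a* were counted through its alias, an alternative chosen after seeing the data, the median was 8.86 and 5 of the 10 rows held a full site. Within 50 kb, 6 genes had a peak when the score minimum was applied, and all 10 had a peak within 100 kb. The share of all protein-coding genes, 58.4%, is given only for 50 kb without a score minimum. The counts at 10 kb, at 100 kb and with the score minimum thus have no background beside them, and nothing is read from them about these genes. No paired analysis was possible because the list merges the libraries and has no column for any of them, and for the same reason no library could be left out. Depth, read length and the overlap of peaks between libraries are unknown, so no value has an error, and a gene without a peak is not shown to be unbound.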

Other observations

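Genes whose products act on trypsin or respond to it were counted as well. Of 6 genes listed for the activation and clearance of trypsin, 5 had an assigned peak, beside 35.9% of all protein-coding genes. They had 10 peaks, of which 7 held a full site, beside 51.8% of all peaks. All 7 were peaks of *Ctsb* or *F2rl1*, and the peaks of *Ctrc*, *Ctsl* and *Tmprss15* held none. No test was made. *Ctsb*, the lysosomal protease cathepsin B that can activate trypsinogen, had 4 peaks with scores from 5.18 to 7.77, and those at 915 bp before and 69 bp after its TSS are in the promoter class. *F2rl1*, the gene of the trypsin receptor PAR2, had 3 peaks, with the highest, 9.96, at 148 bp upstream of the TSS. *Tmprss15*, the gene of enteropeptidase, had a peak of 5.58 in intron 8 of 26, *Ctsl* had a peak of 4.38 at 11909 bp, and *Ctrc*, the gene of a trypsin-degrading chymotrypsin that RefSeq lists as a transcribed pseudogene in this assembly, had a peak of 3.98 at 8904 bp. *Casr* had none.

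Of 7 annotated relatives of the granule proteins, 4 had a peak and 3 had none, beside the 35.9% of all protein-coding genes. *Cuzd1*, the gene of a granule membrane protein with a zona pellucida domain, had 6 peaks, the highest, 17.5, at 88 bp after the TSS. *Klk1*, the gene of tissue kallikrein, had peaks of 8.37 at 12 bp and 7.77 at 2826 bp from its TSS, and *Dmbt1* had a peak of 7.17. Of 14 relatives of *Rnase1*, 6 had a peak and 8 had none, a share near that 35.9%, and 0 had a peak from 1000 bp upstream to the TSS. *Rnase4* and *Rnase10* had the highest score, 10.6 each, at 297 and 418 bp after the TSS.

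The 3 peaks of *Zc3h12a*, which share only an alias with *Reg1*, had scores of 12.5, 12.3 and 7.57, and all 3 held a full site.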
